A study of Mus musculus with 12 samples.

Results

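The 79 genes described here encode the machinery that brings new proteins into the endoplasmic reticulum (ER) and carries them on to the Golgi apparatus. They were taken from the 23997 genes of the expression table by the beginning of the gene symbol (Sec13, Sec16, Sec22, Sec23, Sec24, Sec31, Sec61, Sec62, Sec63, Copa, Copb, Cope, Copg, Copz, Tmed, Ssr, Srp, Spcs, Sar1, Trappc, Lman and Kdelr), and no measured value was used to choose them. The samples were livers of 12 wild type male C57BL/6 mice in 4 groups of 3. They were fed a normal control diet (NCD), the same diet with curcumin, a polyphenol of turmeric (NCD+CUR), a high-fat high-sugar diet (HFHSD), or that diet with curcumin (HFHSD+CUR). By the sample labels, replicate 3 of NCD and of NCD+CUR were 107 weeks old and the other 10 mice 99 weeks. The design text of the series gives 83 to 91 weeks without saying at which point of the feeding, which by the study's methods lasted several months. Messenger RNA of the left lateral lobe was sequenced, and gene levels were given as FPKM, fragments counted on a gene divided by its transcript length and by the size of the library.

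A protein that is to be secreted or built into a membrane is recognized by the signal recognition particle (SRP) as it leaves the ribosome and is threaded through the Sec61 channel, next to which the TRAP complex and signal peptidase work. Cargo then leaves the ER in vesicles coated with COPII and returns, with escaped ER residents, in vesicles coated with COPI, while p24 proteins, lectins and KDEL receptors sort the cargo and TRAPP complexes tether the vesicles. Hepatocytes secrete most plasma proteins and lipoproteins, and so depend heavily on this route.

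All 10 hepatocyte marker genes were found in every group at a summed level of 81453 to 102504 FPKM per liver. The table held FPKM and no fragment counts, so the spread between mice is the only error given. Of the 79 genes, 72 reached an average of 1 FPKM across the 12 livers and were tested in limma on log2(FPKM + 0.1), together with all 10545 genes at that level. The words rose and fell stand for an adjusted p (Benjamini-Hochberg, over all genes tested) under 0.1. The remaining 7 genes were Kdelr3, Lman1l, Srp54b, Tmed6, Tmed8, Tmed11 and Trappc3l, of which Tmed8 was highest at 0.434 to 1.05 FPKM and Srp54b and Tmed11 were listed at 0 in all 12 livers. HFHSD+CUR replicate 3 stood farthest from the other livers, with a mean correlation of 0.952 against 0.963 to 0.969 for the rest. In whole liver, fewer cells of a type and less RNA per cell cannot be told apart.

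The levels of the 72 genes differed widely. Per length of transcript, the most abundant were Sec61b, the small beta subunit of the channel, with a mean of 154 FPKM, Cope, a COPI subunit, with 128 FPKM, and Ssr4, the delta subunit of TRAP, with 119.8 FPKM. The least abundant were Srp54a, a copy of the SRP subunit that binds the signal sequence, with 2.75 FPKM, and Sec61a2, the minor form of the channel's alpha subunit, with 2.85 FPKM. Its major form Sec61a1 stood at 58.7 FPKM.

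In livers of HFHSD-fed mice, more of these genes were lower than higher with curcumin. Genes fell on the entry side of the ER as well as in both coats, but most entry roles were about evenly split between lower and higher values. Of the 72 genes, 21 fell, 3 rose and 48 did not pass. The falls were 29.2% of these genes against 17.2% of all genes tested, and the rises were 4.17% against 13.1%. The median log2 fold change was -0.21, and that of all genes tested was -0.03. In 24 genes every HFHSD+CUR liver lay below every HFHSD liver (33.3%, against 22.8% of all genes), and in 4 every one lay above (5.56%, against 17.9%).

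**Figure D1:**
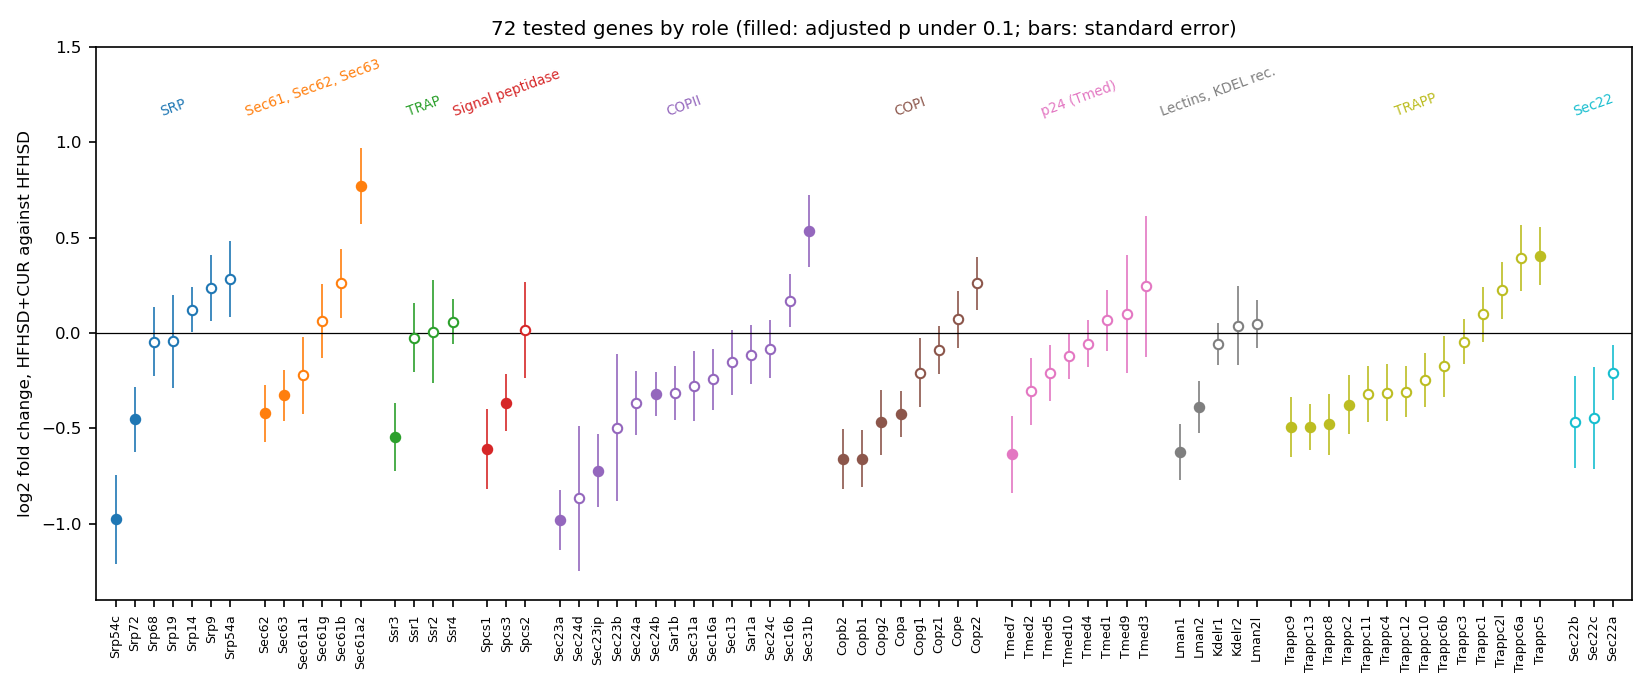
The log2 fold change of HFHSD+CUR against HFHSD is plotted for each of the 72 tested genes (3 livers a group), grouped by role and ordered within each role, with bars of 1 standard error and filled points for an adjusted p under 0.1. Filled points below 0 occur in every role except Sec22, and the 3 filled points above 0 are Sec61a2, Sec31b and Trappc5.

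The COPII genes held the largest fall. Sec23a encodes the inner coat subunit that activates the GTPase Sar1. Its levels were 17.6, 14.5 and 17.6 FPKM in NCD, 12.1, 10.9 and 10.8 in NCD+CUR, 15.7, 17.9 and 18.6 in HFHSD and 9.34, 10.7 and 6.67 in HFHSD+CUR (replicates 1 to 3). The 6 livers with curcumin all lay below the 6 without it, which no other gene of the 72 did (3.68% of all genes tested). On HFHSD, Sec23a fell by 0.98 in log2 units (standard error 0.16, adjusted p = 0.00832 by limma). Sec23ip, which binds Sec23, fell by 0.72 (adjusted p = 0.0223), and Sec24b, one of the cargo-binding Sec24 subunits, fell by 0.32 (adjusted p = 0.0680). Sec24d, another cargo-binding subunit, had a log2 fold change of -0.87 but a standard error of 0.38 and did not pass (adjusted p = 0.130). Sec31b, the minor form of the outer coat subunit Sec31, rose by 0.53 (adjusted p = 0.0624), while the major form Sec31a did not pass (-0.28). Of the 14 COPII genes tested, 3 fell, 1 rose and 10 did not pass, with a median of -0.30.

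COPI, the coat of the return route, had 4 of its 8 genes fall and none rise, with a median of -0.32. Copb1 and Copb2 encode its beta and beta-prime subunits. Copb1 stood at 26.5, 29.3 and 28.9 FPKM in HFHSD and 18.3, 20.9 and 14.8 in HFHSD+CUR, and Copb2 at 43.9, 46.1 and 44.3 and 28.3, 34.1 and 23.5. In both genes the groups did not overlap, and both fell by 0.66 (adjusted p = 0.0136 and 0.0165 by limma). Copa, the alpha subunit, fell by 0.43 (adjusted p = 0.0281), with the 3 HFHSD+CUR livers within 27.9, 27.7 and 27.9 FPKM. Copg2 fell by 0.47 (adjusted p = 0.0707), although 23.0% of its exon bases are shared with Mest on the opposite strand and the counting was not stated to use strand. Cope, Copg1, Copz1 and Copz2 did not pass, with log2 fold changes of 0.07, -0.21, -0.09 and 0.26.

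The promoters of Sec23a, Copb1 and Copb2 are shown because they are the genes among those that fell whose start region holds TGACGTG, the core letters bound by the unfolded protein response factors XBP1 and ATF6. The promoters of Sec24d and Sec16b hold it too and are set beside them for comparison. RefSeq (GRCm38.p6) gave a promoter for 65 of the 79 genes, which was searched from 250 bases before to 50 after the start on both strands. TGACGTG stood in 6 of the 65 (9.23%), against 2.22% of 27025 genes, and the sixth, Kdelr3, was not tested. The longer ER stress element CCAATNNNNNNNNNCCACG stood in 0 of the 65, against 0.137% of all genes. The shorter CCACG, which overlaps TGACGTG where a further G follows it, stood in 58.5% against 35.5%. Each line runs from 150 bases before to 20 after the start, 5′ to 3′ on the strand of the gene, with the motif or its reverse complement in capitals.
Sec23a (chr12:59011998-59012167, minus strand): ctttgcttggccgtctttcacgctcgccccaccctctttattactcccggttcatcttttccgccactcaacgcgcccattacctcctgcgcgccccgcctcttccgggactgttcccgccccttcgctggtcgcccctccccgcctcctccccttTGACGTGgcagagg
Copb1 (chr7:114254661-114254830, minus strand): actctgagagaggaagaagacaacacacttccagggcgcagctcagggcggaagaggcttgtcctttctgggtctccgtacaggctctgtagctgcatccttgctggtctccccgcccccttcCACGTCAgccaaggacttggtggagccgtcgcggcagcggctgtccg
Copb2 (chr9:98563581-98563750, plus strand): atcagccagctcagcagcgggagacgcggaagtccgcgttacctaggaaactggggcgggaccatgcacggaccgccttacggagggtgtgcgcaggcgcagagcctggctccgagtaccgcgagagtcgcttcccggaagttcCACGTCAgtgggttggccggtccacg
Sec24d (chr3:123267346-123267515, plus strand): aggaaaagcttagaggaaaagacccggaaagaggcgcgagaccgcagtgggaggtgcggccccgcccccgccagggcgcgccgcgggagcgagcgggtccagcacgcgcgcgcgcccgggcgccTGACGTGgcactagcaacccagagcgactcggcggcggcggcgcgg
Sec16b (chr1:157506646-157506815, plus strand): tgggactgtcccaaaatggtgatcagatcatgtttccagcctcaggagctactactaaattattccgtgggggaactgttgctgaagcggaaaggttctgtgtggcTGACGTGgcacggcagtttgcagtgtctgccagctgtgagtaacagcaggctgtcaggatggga
The match begins 7 bases after the start of Sec23a counted as base 1, and 27, 6, 26 and 44 bases before the starts of Copb1, Copb2, Sec24d and Sec16b. Sec16b, a form of the scaffold of ER exit sites, had a log2 fold change of 0.17 with curcumin on HFHSD and did not pass.

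Cargo receptors fell in part. Lman1 and Lman2 encode lectins that bind the sugar chains of cargo, and Lman1 is required for the export of coagulation factors V and VIII. Lman1 stood at 51.6, 56.0 and 57.1 FPKM in HFHSD and 37.6, 41.2 and 29.0 in HFHSD+CUR. It fell by 0.62 (adjusted p = 0.0159 by limma), and Lman2 fell by 0.39 (adjusted p = 0.0642). Kdelr1 and Kdelr2, the receptors that return ER residents, did not pass (-0.06 and 0.04). Of the 8 tested p24 genes, Tmed7 alone passed and fell by 0.64 (adjusted p = 0.0434), and 38.3% of its exon bases are shared with Ticam2 on the same strand. Tmed2, the most abundant p24 gene, had -0.31 and did not pass.

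On the entry side of the ER, 2 of the 7 tested SRP genes, 2 of the 6 genes of Sec61, Sec62 and Sec63, 1 of the 4 TRAP genes and 2 of the 3 signal peptidase genes fell. The medians of these roles, in that order, were -0.04, -0.08, -0.01 and -0.36. Below 0 lay 4, 3, 2 and 2 genes, and above it 3, 3, 2 and 1. Srp54c, a copy of the SRP subunit that binds the signal sequence, stood at 2.61, 3.19 and 3.08 FPKM in HFHSD and 1.45, 1.96 and 1.07 in HFHSD+CUR and fell by 0.98 (adjusted p = 0.0164 by limma). Its near-identical copy Srp54a had 0.28 and did not pass, so how reads were split between the copies is uncertain. Srp72, a protein that holds the SRP RNA, fell by 0.45 (adjusted p = 0.0784). Sec62 and Sec63, partners of the channel for cargo that arrives after translation, fell by 0.42 and 0.33 (adjusted p = 0.0653 and 0.0991). Ssr3, the gamma subunit of TRAP, fell by 0.55 (adjusted p = 0.0489), while Ssr1, Ssr2 and Ssr4 stayed between -0.02 and 0.06. The signal peptidase subunits Spcs1 and Spcs3 fell by 0.61 and 0.36 (adjusted p = 0.0566 and 0.0940), and Spcs2 had 0.02. Spcs1 shares 19.5% of its exon bases with Glt8d1, and Sec62 12.8% with a noncoding gene, each on the opposite strand.

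Sec61a2 was the largest rise. It stood at 2.05, 2.86 and 2.00 FPKM in NCD, 3.33, 4.11 and 3.87 in NCD+CUR, 2.53, 1.64 and 1.68 in HFHSD and 2.96, 3.06 and 4.08 in HFHSD+CUR. The 6 livers with curcumin all lay above the 6 without it, as in 3.65% of all genes, and on HFHSD it rose by 0.77 (standard error 0.20, adjusted p = 0.0212 by limma). The gene is at low level and shares 35.9% of its exon bases with Nudt5 on the opposite strand. Sec61a1 had -0.22 and did not pass.

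Among the 14 tested TRAPP genes, 4 fell, 1 rose and 9 did not pass. Trappc9, a subunit of the TRAPP II form, and Trappc13 and Trappc8, subunits of the TRAPP III form, fell by 0.49, 0.49 and 0.48 (adjusted p = 0.0447, 0.0178 and 0.0538 by limma). The core subunit Trappc2 fell by 0.38 (adjusted p = 0.0991), and the core subunit Trappc5 rose by 0.40 (adjusted p = 0.0769). Sec22b, the SNARE that fuses ER-derived vesicles, had -0.47 and did not pass (adjusted p = 0.181), and none of the 3 Sec22 genes passed.

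**Figure D2:**
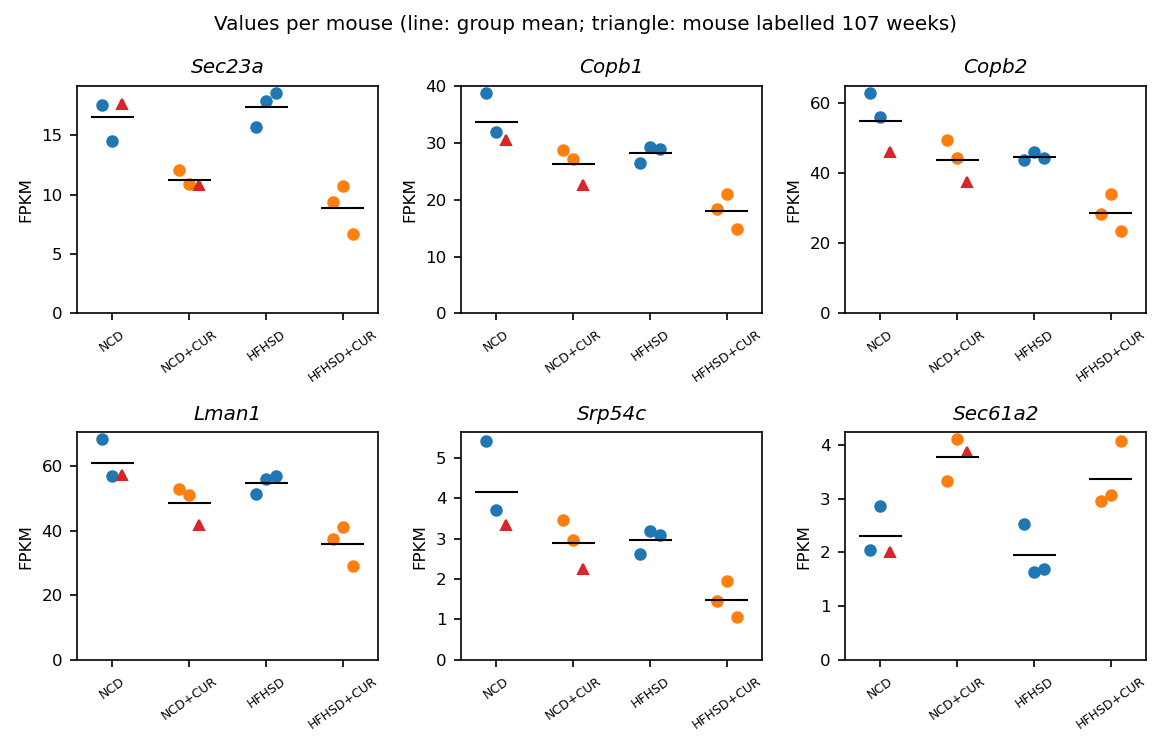
FPKM in each of the 12 livers is plotted for 6 genes that changed with curcumin on HFHSD, by group, with a line at the mean of 3 and a triangle for the livers labelled 107 weeks. Sec23a and Sec61a2 separate the 6 livers with curcumin from the 6 without it, and Copb1, Copb2, Lman1 and Srp54c are lower in HFHSD+CUR than in HFHSD with no overlap.

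The counts moved with single livers and with the pairing. Without HFHSD+CUR replicate 3, the liver that stood farthest from the others, 8 genes fell and 0 rose (6.14% and 5.50% of all genes). The falls were Sec23a, Srp54c, Sec23ip, Copb1, Copb2, Copa, Lman1 and Trappc13. Without HFHSD replicate 1, 12 fell and 1 rose (13.4% and 9.92% of all genes). Without HFHSD replicate 2, 11 fell and 2 rose (11% and 9% of all genes), and without HFHSD replicate 3 these were 11 and 2 as well (8.81% and 7.61%). The replicate numbers were taken to pair the livers within each diet, although nothing says what they stand for. With the replicate number as a block, 32 fell and 7 rose (44.4% and 9.72% of these genes, against 25.4% and 20.2% of all genes tested). Quantile normalization gave 17 falls and 5 rises (15.9% and 13.8% of all genes).

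The falls were concentrated in genes with a long median transcript. Of the 18 genes with a transcript under 1000 bases, 1 fell and the median was 0.06, and of 22 genes of 1000 to 2000 bases, 2 fell and 1 rose with a median of -0.09. Of 14 genes of 2000 to 3000 bases, 8 fell with a median of -0.47, and of 18 genes over 3000 bases, 10 fell and 2 rose with a median of -0.35. The length is the median over the protein-coding transcripts of a gene in GENCODE vM21, short ones included, and can fall below that of the main transcript. It was 694 bases for Sec23b against 3319 for Sec23a, and 1195 for Sec31a against 3743.5 for Sec31b. Some genes may therefore stand in too short a bin. Across the 72 genes, which share their libraries, the fold change had a Spearman correlation of -0.45 with length and 0.44 with GC content, and across 10478 genes tested these were -0.25 and 0.31. When the dependence on GC content and length was removed from every library, 10 genes fell, which was 13.9% of these genes against 13.5% of all genes, and 4 rose, against 12% of all genes. With the block added to that removal, 25 fell and 6 rose, 34.7% and 8.33% against 23.2% and 19.6% of all genes. Sec23a, Srp54c, Sec23ip, Copb1, Copb2, Lman1, Tmed7, Spcs1, Trappc9 and Trappc13 were the 10 that fell without the block, Sec23a by 0.75 (adjusted p = 0.00998 by limma). The part of transcript length in these falls was not tested beyond this removal.

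**Figure D3:**
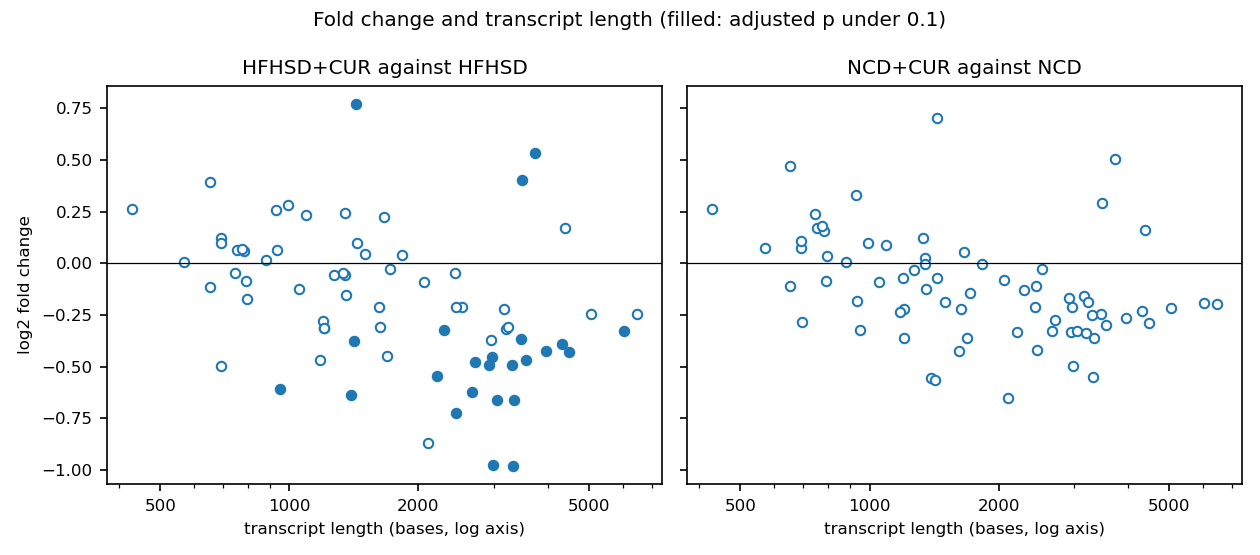
The log2 fold change with curcumin is plotted against transcript length on a log axis for the 72 genes, on HFHSD at left and on NCD at right (3 livers a group), with filled points for an adjusted p under 0.1. The length is the median over the protein-coding transcripts of each gene. On both diets the genes short by this measure lie around 0 and most of the long ones lie below it.

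On the normal diet, curcumin changed 0 of the 72 genes at an adjusted p under 0.1, as it did 0 of all 10545 genes (0%) by limma. At an unadjusted p under 0.05, 10 genes were lower and 4 higher, 13.9% and 5.56% of these genes against 7.17% and 6.83% of all genes. The median was -0.16, against -0.01 for all genes tested, and without NCD+CUR replicate 3, a liver labelled 107 weeks, it was -0.01. That fit keeps the 107-week liver of NCD, so its groups differ in the age label. In it 14 of the 72 genes changed sign, against 6 without both 107-week livers, a choice made after the data were seen. With the replicate block, which on the normal diets also sets the livers labelled 107 weeks apart, 8 fell and 4 rose (11.1% and 5.56%, against 3.79% and 4.36% of all genes). The falls in that fit were Sec24d, Trappc2, Tmed7, Sec23a, Tmed5, Sec23ip, Copb1 and Ssr3, among which Sec23a stood at a log2 difference of -0.55 (adjusted p = 0.0717). The rises were Sec61a2, with 0.70 (adjusted p = 0.0695), Sec31b, Trappc6a and Copz2. With the removal of GC and length trends and the block together, 3 fell and 0 rose (0.458% and 0.935% of all genes). Without NCD replicate 2 and with no block, 3 rose and 1 fell (3.7% and 4.78% of all genes).

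The curcumin comparisons of the diets, which share no mouse, gave similar values for these genes. Across the 72 genes the log2 fold changes correlated with a Pearson r of 0.90 and a Spearman rho of 0.89, and 65 of the 72 had the same sign, while over all genes tested the Pearson correlation was 0.69. Without any one liver the Pearson r of these genes was 0.80 to 0.90, and 55 (without NCD+CUR replicate 3) to 67 had the same sign. Without both livers labelled 107 weeks, r was 0.87 and 61 had the same sign. The genes are not independent of each other and share the dependence on length. In the test of the difference between the diets, 0 of the 72 genes passed (0% of all genes), and at an unadjusted p under 0.05 0 were higher or lower (0.882% and 0.493% of all genes). For Sec23a the difference between the diets was -0.43 with a standard error of 0.22 on the log2 scale. Averaged over both diets, 28 genes fell and 5 rose (38.9% and 6.94%, against 20.8% and 17.1% of all genes). With the trends with GC and length removed, 15 fell and 5 rose (17.5% and 15.3% of all genes). Beyond those that fell on HFHSD, the average added Sec24d, Sec24a, Trappc4, Trappc11, Trappc12, Tmed5 and Sar1b, each lower by 0.76 or less, and the added rises were Trappc6a (0.43) and Copz2 (0.30). Sec23a fell by 0.76 in the average (adjusted p = 0.00260 by limma).

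The high-fat high-sugar diet by itself was compared with NCD. By the test, 1 gene fell and 0 rose (1.39% and 0%, against 1.87% and 2.74% of all genes). That gene was Sec61a1, the pore-forming subunit of the channel (GRCm38.p6 chr6:88503607-88518800, with 17.3% of its exon bases shared with a noncoding gene on the opposite strand). It stood at 94.0, 88.3 and 58.8 FPKM in NCD, 81.1, 82.1 and 53.0 in NCD+CUR, 41.6, 43.4 and 47.7 in HFHSD and 41.2, 41.2 and 32.0 in HFHSD+CUR. Every HFHSD liver lay below every NCD liver, and Sec61a1 fell by 0.83 (standard error 0.20, adjusted p = 0.0558 by limma). Replicate 3 of NCD and of NCD+CUR, the livers labelled 107 weeks, were the lowest of their groups. In 19 of the 72 genes every HFHSD liver lay below every NCD liver (26.4%, against 10.3% of all genes), and in 4 every one lay above (5.56%, against 12.5%). The median was -0.14, and that of all genes tested was 0.03.

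The count depended on single livers. Without NCD replicate 3, labelled 107 weeks, 18 genes fell, Sec61a1 among them, and 1 rose (7.61% and 8.95% of all genes). Without NCD replicate 1 or 2, or without any one HFHSD liver, 0 passed. Without both livers labelled 107 weeks, 19 fell and 1 rose (26.4% and 1.39%, against 8.19% and 9.08% of all genes). The 19 held all 4 TRAP genes, Sec61a1 and Sec61g of the channel, Srp9, Srp19 and Srp68 of the SRP, and Spcs2, Sec22b and Kdelr2. The largest falls were those of Tmed3 (-1.42, adjusted p = 0.000585) and Sec23b (-1.39, adjusted p = 0.000989). Sec61a1 fell by 1.04 in that fit (adjusted p = 0.00141), and Copg2 was the rise. Leaving out these livers was chosen after the data were seen. With the age label as a covariate, 27 fell and 1 rose (9.15% and 10.2% of all genes).

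HFHSD+CUR against NCD+CUR gave the same direction. Of the 72 genes, 8 fell and 0 rose (11.1% and 0%, against 1.55% and 2.07% of all genes). They were Sec61a1, Copg1, Ssr3, Srp54c, Copb2, Ssr4, Copb1 and Copa, with log2 fold changes from -0.93 for Srp54c to -0.43 for Copa and Ssr4. Without NCD+CUR replicate 3, 24 fell and 0 rose (3.22% and 2.76% of all genes), and without both livers labelled 107 weeks 27 fell and 0 rose (37.5%, against 5.39% of all genes that fell and 4.49% that rose). Without NCD+CUR replicate 1 or 2, HFHSD+CUR replicate 1 or HFHSD+CUR replicate 3, 0 passed.

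The livers labelled 107 weeks were therefore compared with the other livers on normal diets, 2 against 4, with the age label as a term beside the 4 groups. This comparison was added after the data were seen, and age cannot be told apart from anything else that set these mice apart, including the replicate number 3 that both carry. Same-numbered livers of a diet deviated together, although the shared age label can itself give this on the normal diets. Taken as pairs, the 2 livers are 1 pair against 2 pairs, and p-values that count each liver as independent are too small. Of the 72 genes, 18 fell and 1 rose (25% and 1.39%, against 3.14% and 2.36% of all genes), with a median of -0.21 against 0.01 for all genes tested. In 25 genes both 107-week livers lay below all 4 others (34.7%, against 13.1% of all genes), and in 1, Copg2, both lay above (12.5% of all genes). With an estimated correlation of 0.30 between same-numbered livers in the model, 11 fell and 0 rose (1.62% and 0.778% of all genes): Copg1, Kdelr2, Sec22b, Sec23b, Sec61a1, Spcs2, Srp19, Ssr1, Ssr2, Tmed3 and Tmed9. Without NCD replicate 3 or without NCD+CUR replicate 3, a single liver of 107 weeks remained and fewer genes fell. Such a fit cannot tell the age label from that liver. Whether the falls depend on 1 of the 2 livers was not tested.

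By role, the falls at 107 weeks took in 3 of the 4 TRAP genes, 4 of the 7 SRP genes, 3 of the 14 COPII genes, 2 of the 8 p24 genes and 2 of the 6 genes of Sec61, Sec62 and Sec63. COPI, signal peptidase, Sec22 and the lectin and KDEL receptors had 1 each, and the 14 TRAPP genes 0. These counts and the adjusted p-values below come from the fit that counts each liver as independent. With same-numbered livers correlated in the model, Srp9, Srp68, Srp72, Ssr3, Sec24d, Sec31a and Sec61g no longer fell. Of the SRP genes Srp19 was then left, and of the COPII genes Sec23b. Sec23b, the second form of the inner COPII subunit, stood at 28.3, 23.2 and 9.59 FPKM in NCD and 20.7, 17.8 and 9.46 in NCD+CUR (the 107-week liver is given last). It stood at 8.91, 10.3 and 10.04 in HFHSD and 8.47, 6.93 and 5.49 in HFHSD+CUR. Sec23b was lower by 1.21 at 107 weeks (standard error 0.17, adjusted p = 0.00196 by limma). Tmed3, a p24 protein, stood at 23.3, 26.1 and 11.3 FPKM in NCD, 27.8, 23.8 and 10.9 in NCD+CUR, 9.69, 8.16 and 9.70 in HFHSD and 13.5, 9.04 and 10.5 in HFHSD+CUR. It fell by 1.18 at 107 weeks (adjusted p = 0.00132), and the 107-week livers again lay among those of the HFHSD diets. Ssr2, the beta subunit of TRAP, stood at 112, 128 and 63.0 FPKM in NCD and 127, 119 and 69.0 in NCD+CUR, and fell by 0.88 (adjusted p = 0.00306). Tmed9, another p24 protein, Spcs2 of signal peptidase and Srp19, an SRP protein that binds the SRP RNA, fell by 0.98, 0.82 and 0.78 (adjusted p = 0.00264, 0.00307 and 0.00716). Sec22b, Kdelr2 and Sec61a1 fell by 0.76, 0.68 and 0.63 (adjusted p = 0.00732, 0.00572 and 0.0187). Tmed9, Spcs2, Srp19 and Kdelr2 were named after their values were seen.

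**Figure D4:**
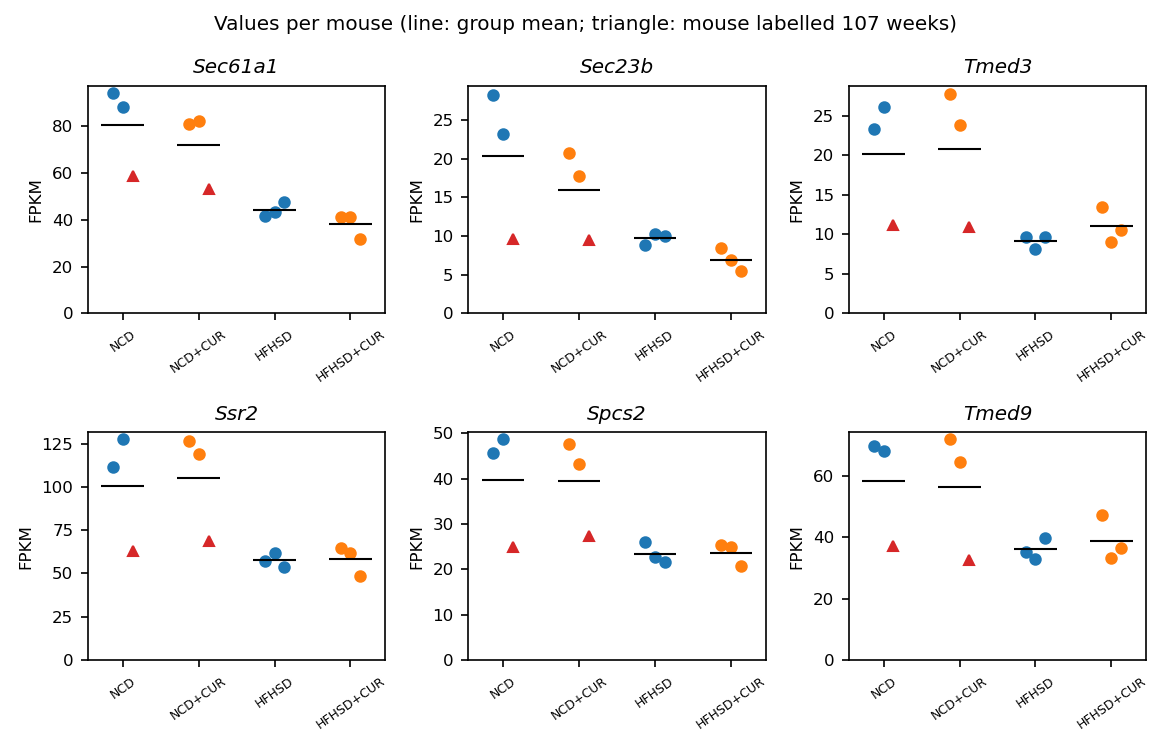
FPKM in each of the 12 livers is plotted for 6 genes that fell at 107 weeks, by group, with a line at the mean of 3 and a triangle for each of the 2 livers labelled 107 weeks. In each gene the triangles lie below the other normal-diet livers.

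The 107-week livers were also set beside the livers on the HFHSD diets. Of the 18 genes that fell at 107 weeks, 8 had both 107-week livers inside the range of the 6 HFHSD and HFHSD+CUR livers, 8 had 1 inside and 2 (Sec61a1 and Copg1) had none. Of the other 54 genes these were 27, 25 and 2. In a test of the HFHSD diets against the 107-week livers, 0 of the 72 genes rose or fell by limma (1.11% and 0.522% of all genes), and at an unadjusted p under 0.05 1 was higher and 6 were lower on HFHSD. For Tmed3 the difference was -0.15 with a standard error of 0.14, for Sec23b -0.22 with 0.16 and for Sec61a1 -0.45 with 0.12 on the log2 scale. A difference that did not pass in 2 livers against 6 does not show equal levels.

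The genes that fell with curcumin were mostly other genes than those that fell at 107 weeks. The fold changes of curcumin on HFHSD and of the age label on normal diets share no mouse. The spread in each test came from all 12 livers, with no age term in the curcumin test. A gene low at 107 weeks thus had a larger standard error with curcumin, 0.39 for Sec23b and 0.37 for Tmed3 against 0.16 for Sec23a. Such genes passed less easily, which limits what the overlap of the lists can show. With the age label as a covariate, 28 genes passed on HFHSD instead of 24. Of the 21 and 18 genes, 2 were in both (Srp72 and Ssr3), 9.52% of the first list and 11.1% of the second. The list of 18 counts each liver as independent. Neither Srp72 nor Ssr3 fell at 107 weeks with same-numbered livers correlated in the model. Across the 72 genes the fold changes correlated with a Pearson r of 0.05 and a Spearman rho of 0.01, and over all genes tested the Pearson correlation was -0.12. The trends with transcript length were opposed. The Spearman correlation with length was -0.45 for curcumin on HFHSD and 0.29 for 107 weeks (-0.25 and 0.18 over 10478 genes). The part of these trends in the small overlap was not tested. Forms of a coat subunit differed between curcumin on HFHSD and 107 weeks. Sec23a had -0.98 with curcumin on HFHSD and 0.03 at 107 weeks, while Sec23b had -0.50, which did not pass, and -1.21. Copg2 had -0.47 and 0.45, and Copg1 had -0.21, which did not pass, and -0.56. In Sec23b and Copg1 every HFHSD+CUR liver nevertheless lay below every HFHSD liver. Sec24d was low in both, with -0.87 (not passed) and -1.02.

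**Figure D5:**
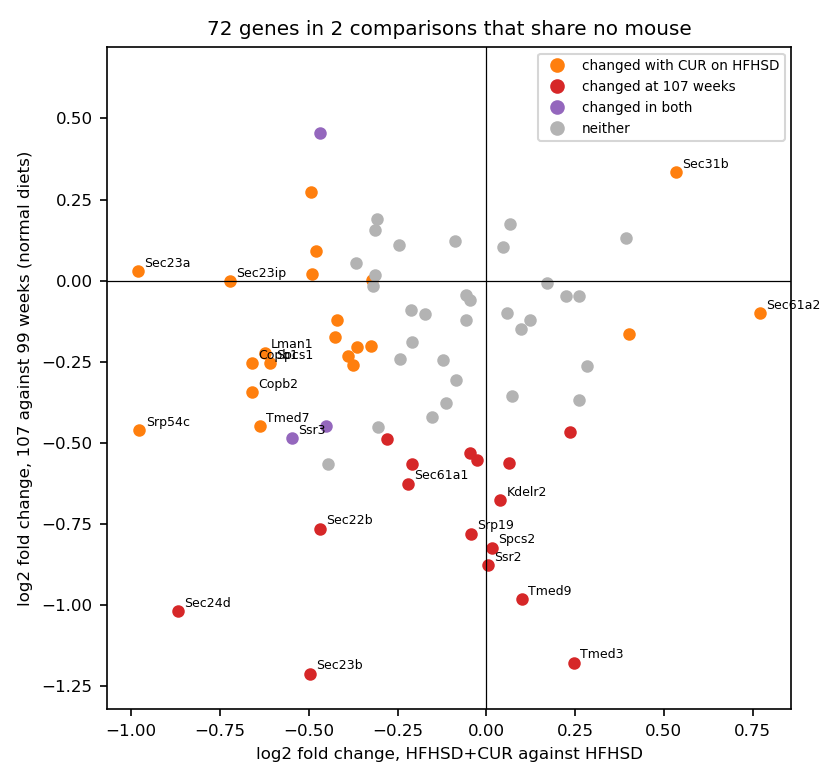
For each of the 72 genes, the log2 fold change at 107 against 99 weeks on normal diets (2 against 4 livers, vertical axis) is plotted against that of HFHSD+CUR against HFHSD (3 against 3 livers, horizontal axis), colored by which of these comparisons it passed. Sec23a and Sec23ip lie far to the left near 0 on the vertical axis, and Tmed3, Tmed9 and Ssr2 lie far down near or right of 0 on the horizontal axis. With each liver counted as independent, 3 genes passed in both, of which Copg2 moved in opposite directions. None of the 3 passed at 107 weeks with same-numbered livers correlated in the model.

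Genes of the same route that do not carry these symbols were counted with curcumin on HFHSD too. Of all genes tested, 17.2% fell and 13.1% rose there, with a median of -0.03. Of 34 tested genes of targeting, the SRP receptor, oligosaccharyl transferase and the insertion complexes, 9 fell and 0 rose, with a median of -0.04. Tusc3, a subunit of oligosaccharyl transferase, fell from 5.55 ± 0.658 to 2.78 ± 0.511 FPKM (SD, n = 3), or -0.98 in log2 units (adjusted p = 0.00832 by limma). Rpn2, of the same enzyme, fell by 0.41, Mmgt1, of the ER membrane protein complex, by 0.43, and Dnajc3, an ER chaperone, by 0.67. Of 50 tested genes of ER-Golgi transport, 15 fell and 2 rose, with a median of -0.19. Mia2, which helps load large cargo at ER exit sites, fell from 19.0 ± 5.28 to 2.85 ± 0.743 FPKM (SD, n = 3), by 2.69 (adjusted p = 0.0161 by limma). Its relative Mia3 fell by 0.47, and Ergic1, a protein of the ER-Golgi intermediate compartment, by 0.67. Bnip1, an ER SNARE, rose by 0.45. On HFHSD against NCD, 1 of the 34 and 0 of the 50 genes passed, while 1.87% of all genes fell and 2.74% rose.

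Some markers of other liver cells moved with the diet and the curcumin comparisons. Of all genes tested, 1.87% fell and 2.74% rose in HFHSD against NCD. In HFHSD+CUR against HFHSD, 17.2% of all genes fell and 13.1% rose. The 8 sinusoidal endothelial markers summed to 66.8 to 70.6 FPKM in NCD, 62.4 to 83.4 in NCD+CUR, 27.4 to 43.1 in HFHSD and 32.1 to 77.6 in HFHSD+CUR. In HFHSD against NCD 5 of the 8 fell, Kdr, the endothelial receptor of VEGF, by 1.44 (adjusted p = 0.0246 by limma), and in HFHSD+CUR against HFHSD 2 rose, among them Stab1 by 1.19 (adjusted p = 0.0118). Of the 10 hepatocyte markers, 3 fell and 1 rose with curcumin on HFHSD, and those that fell were Cps1, Tdo2 and Apob. The 8 stellate cell and fibroblast markers summed to 90.5 to 116 FPKM in NCD, 81.2 to 110 in NCD+CUR, 58.5 to 80.3 in HFHSD and 46.2 to 88.8 in HFHSD+CUR, and 2 fell in HFHSD against NCD (5 were lower at an unadjusted p under 0.05). The 6 cholangiocyte markers summed to 35.8 to 190 FPKM in NCD, 74.4 to 134 in NCD+CUR, 37.0 to 55.8 in HFHSD and 49.3 to 73.8 in HFHSD+CUR. In HFHSD against NCD 0 of the 4 tested passed by limma (2 were lower at an unadjusted p under 0.05), with a median of -1.05. The 7 B cell and plasma cell markers summed to 12.1 to 15.3 FPKM in NCD, 12.5 to 15.0 in NCD+CUR, 7.54 to 13.4 in HFHSD and 12 to 18.2 in HFHSD+CUR. With curcumin on HFHSD 3 of the 5 tested rose, with a median of 1.03. At an unadjusted p under 0.05 by limma, 3 were higher and 1 was lower. The part of these cells in the values above was not tested. Kupffer cell markers summed to 73.6 to 144 FPKM in HFHSD and 74.7 to 186 in HFHSD+CUR, and 0 of the 7 passed with curcumin on HFHSD by limma (0 at an unadjusted p under 0.05).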

How the data were processed

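By the submitters' processing notes, TopHat2 2.0.13 placed the reads on mm10, and the authors derived the deposited FPKM values with Cuffdiff 2.2.1. FPKM divides by transcript length and library size and keeps no counts. Values were used as deposited, and the columns of the authors' own comparisons (fold changes, p-values) were not used. All 10545 genes that averaged 1 FPKM or more were fitted as log2(FPKM + 0.1) in limma 3.58.1 (R 4.3.3), in 1 model of the 4 groups, with trend and robust moderation and Benjamini-Hochberg adjustment. Nothing says what the replicate numbers stand for. Same-numbered livers of NCD and NCD+CUR deviated together, with a correlation of 0.339, 0.300 and 0.527 for numbers 1 to 3, and so did those of HFHSD and HFHSD+CUR (0.156, 0.350 and 0.178), so that a block within diets treats them as pairs. For NCD and HFHSD the values were 0.00341, 0.0428 and 0.236. GC content and length came from GENCODE vM21, and their trends were removed by loess (span 0.4). Positions and promoters came from RefSeq GRCm38.p6. Exact permutation of 3 against 3 cannot give a p under 0.1. Genes were named by a rule (up to 4 changed per role, the most abundant, the 5 largest changes in each direction). The members, lists and rule were chosen with earlier results of these data known. Alternatives were other pseudocounts (1 and 0.01), testing without a filter, a 5 FPKM minimum, quantile normalization, equal medians, blocks, age as a covariate, an estimated correlation of same-numbered livers, no trend, only the groups compared, an adjusted p under 0.05 and leaving out each liver. In simulated data made from these libraries, with 3 against 3, the model called 41 of 100 genes changed by 1.5-fold and 87 of 100 changed by 2-fold, and 16 of 10345 unchanged genes. The simulated spread was independent between genes, with no pairing, age label or length trend, and far fewer genes changed than in the data. These counts therefore do not give the error rates of the comparisons above.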

Additional observations from a re-analysis of the deposited data

How the results depend on the processing

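With pseudocounts of 1 and 0.01 every count of changed genes kept to within 1.5 times its value, and no gene that passed in a comparison changed direction there under any alternative. The values here are numbers of these genes that changed, out of 72 tested. Without a filter they are out of 79, and at a minimum of 5 FPKM out of 60. For HFHSD+CUR against HFHSD (24), no filter gave 10, an adjusted p under 0.05 gave 12, removal of GC and length trends 14, the replicate block within each diet 39, and leaving out a single liver 8 (HFHSD+CUR replicate 3) to 25. For NCD+CUR against NCD (0), the replicate block gave 12, removal of GC and length trends with the block 3, and leaving out a liver 0 to 4. For HFHSD against NCD (1), no filter and an adjusted p under 0.05 gave 0, a minimum of 5 FPKM 2, equal medians 3, removal of GC and length trends 5, quantile normalization 6, the replicate block over all libraries 11, leaving out both 107-week livers 20, that with GC and length trends removed 28, age as a covariate 28, and leaving out a liver 0 to 19 (NCD replicate 3). For HFHSD+CUR against NCD+CUR (8), no filter and an adjusted p under 0.05 gave 0, only the groups compared 1, no trend and no robust moderation 4, the replicate block over all libraries 18, leaving out both 107-week livers 27, that with GC and length trends removed 29, age as a covariate 30, and leaving out a liver 0 to 24 (NCD+CUR replicate 3). For curcumin averaged over both diets (33), removal of GC and length trends gave 20, with or without the 107-week livers, and the pairing within diets changed it to 43. For 107 against 99 weeks (19), no filter and the replicate block as an estimated correlation gave 11. Leaving out a liver of 99 weeks gave up to 21, and leaving out either liver of 107 weeks gave fewer falls. Without a filter more genes were tested, but unadjusted counts moved too. In HFHSD+CUR against NCD+CUR, 20 genes were then lower at an unadjusted p under 0.05 by limma, against 26 with the filter. The causes of the shifts were not tested.

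The livers of 107 weeks number 2, and both carry the replicate number 3. FPKM holds no counts, so no counting error was given for a single value. A leave-one-out model takes the remaining livers of a group to vary like the others.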
